A study of Rattus norvegicus with 12 samples.

Results

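Acrv1, Adam2 and Adam24 encode proteins of the acrosome and of the sperm surface, and their transcripts were followed in rat testis across restraint stress plus ice-water swimming (RS+IS). The 3 genes were taken by name from the germ cell markers that the study assigned to a cell stage, and the rule for taking them uses no expression value, although it was written with earlier results of these libraries known. They are 3 of the 578 markers that were matched to the deposited tables and correspond to 3 of 31715 transcripts, ENSRNOT00000011309.3 for Acrv1, ENSRNOT00000066478.3 for Adam2 and ENSRNOT00000042587.5 for Adam24. The study lists Adam2 as a spermatocyte (SPC) marker, a class of 181 matched genes, and Acrv1 and Adam24 as spermatid markers, a class of 385. The question was how the 3 transcripts changed with the duration of stress, and whether the SPC marker moved differently from the spermatid markers.

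RNA sequencing covered 12 testis libraries from male Sprague Dawley (SD) rats, in 4 groups of 3. The age on the labels is 8 weeks for every library, whatever the duration of stress, so it cannot be the age at sampling in every group. If all rats started at the same age, those stressed for longer were older at sampling. The part of age in the differences between durations was not tested. Stressed rats were immobilised and then made to swim in ice water on each of 3, 14 or 21 days, while the control rats moved freely but, like the stressed ones, had no food or water during those hours. The study kept controls for each duration, and the labels do not say to which of these the 3 control libraries belonged, so the time for which controls were kept cannot be told apart from the duration of stress. Libraries of 1 group carry replicate numbers, and no label ties a number to a named rat, so p-values measure the spread between these samples. No genetic modification is given for any group.

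Spermatocytes are germ cells in meiosis, and spermatids are their haploid products, in which the acrosome, a secretory vesicle that caps the nucleus, is built. Acrv1 (SP-10) is a protein of the acrosomal matrix that is made in round spermatids. Adam2 (fertilin beta) is a membrane-anchored protein of the ADAM family that is carried on the sperm surface, takes part in binding to the egg coat and depends on the chaperone calmegin for its folding. Adam24 (testase 1) is an ADAM protease of the mature sperm surface that has been linked to the block to polyspermy. Transcription of an acrosomal gene and assembly of its protein can lie in different cell stages, so a transcript level is not a protein level.

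The RefSeq start-site sequences were read for the members with an entry in the table at hand, Acrv1 and Adam24, both of the GRCr8 assembly, which is not the Rnor_6.0 build of the alignments. They are shown because spermatid genes are commonly controlled from short promoters, and each runs 5′ to 3′ over the 250 bases before the start site, at chr8:44592996-44593245 on the plus strand for Acrv1 and at chr16:58287736-58287985 on the minus strand for Adam24. Capitals mark matches to 4 motifs searched on both strands, namely TGACGTCA, which is the cyclic AMP response element, TGACG as its shorter form, the repeat GTGTGT, which reads as ACACAC on the opposite strand, and TATAAA, the TATA box.
Acrv1: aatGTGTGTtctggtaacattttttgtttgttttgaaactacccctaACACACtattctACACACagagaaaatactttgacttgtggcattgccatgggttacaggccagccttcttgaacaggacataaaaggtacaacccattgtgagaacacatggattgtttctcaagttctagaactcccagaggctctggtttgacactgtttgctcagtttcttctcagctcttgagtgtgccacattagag
Adam24: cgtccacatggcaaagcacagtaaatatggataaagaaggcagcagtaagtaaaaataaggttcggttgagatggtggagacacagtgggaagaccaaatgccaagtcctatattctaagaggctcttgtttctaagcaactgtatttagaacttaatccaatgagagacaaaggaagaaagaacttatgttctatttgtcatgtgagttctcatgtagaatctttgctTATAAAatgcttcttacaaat
The Acrv1 window held 3 matches to the GTGTGT repeat and the Adam24 window 1 TATA box, 21 bases before the start site. Among 33469 promoter windows of the same length, 13.8% held GTGTGT, 12.9% held TATAAA, 18.2% held TGACG (which every TGACGTCA also contains) and 1.59% held TGACGTCA. The 2 windows shared none of the 4 motifs.

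The members were well covered in every library. Estimated counts ranged from 2937 to 3787 for Acrv1 (transcript length 1070 bases), from 7845 to 10205 for Adam2 (2619 bases) and from 5482 to 6883 for Adam24 (2612 bases), and all 36 values were whole numbers to within 1e-06. Library totals ran from 23907966 to 29404567. The scaling factors by trimmed mean of M-values (TMM) ran from 0.952 in the 21-day library of replicate 2 to 1.04 in the control library of replicate 1. Germ cell markers of each stage were present, with control means of 13.1 TPM (transcript abundance relative to length and library size) for Stra8 of spermatogonia, 309.2 TPM for Sycp3 of spermatocytes and 19120 TPM for Tnp1 of spermatids. In the 21-day stress group the mean was 257.6 TPM for Sycp3 and 24540 TPM for Tnp1. The spermatocyte markers Sycp2, Ddx4, Ldhc, Hspa2 and Piwil1 were also lower than in control, by varying amounts. Of the spermatid markers, Tnp2, Akap4 and Odf1 were higher, Izumo1 rose only from 76.6 to 81.4 TPM, and Spam1 fell from 161.8 to 152.7 TPM. The part of such changes of stage markers in the members' values was not tested. In whole testis, fewer cells of a stage cannot be told apart from less RNA per cell. Markers of somatic cells have no gene name in these tables and were not analysed here.

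Levels are given first in TPM, which can be compared between genes because they take transcript length into account. Acrv1 was 157.6, 174.5 and 166.3 TPM in the control libraries of replicates 1, 2 and 3, and 167.2, 182.2 and 184.6 TPM in the 3-day stress group. It was 184.2, 187.0 and 168.9 TPM in the 14-day stress group and 178.9, 180.7 and 172.1 TPM in the 21-day stress group. The means were 166.2 ± 8.45 TPM in control (SD, n = 3), 178.0 ± 9.43 at 3 days, 180.0 ± 9.74 at 14 days and 177.3 ± 4.57 at 21 days. Each stress group thus had a mean 1.07 to 1.08 times that of control, and in each of them at least 1 library lay within the control range. Ordered by mean, the groups ran 14-day, 3-day, 21-day and control, and every pair of neighbours in this order overlapped.

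Adam2 behaved differently in its order. Its level was 144.1, 154.5 and 156.0 TPM in control, 158.8, 160.0 and 161.9 TPM at 3 days, 148.8, 150.5 and 154.4 TPM at 14 days and 151.3, 145.6 and 144.5 TPM at 21 days. The means were 151.5 ± 6.46, 160.2 ± 1.56, 151.3 ± 2.87 and 147.1 ± 3.65 TPM in the same order of groups (SD, n = 3 each). The 3-day stress group was the highest, at 1.06 times control, and the 21-day stress group the lowest, at 0.971 times control. In TPM all 3-day libraries exceeded all other libraries, whereas control, 14-day and 21-day libraries overlapped. This separation depended on the scale. In CPM (counts relative to library size scaled by TMM), the control libraries were 303.2, 345.6 and 342.9 and the 3-day libraries 336.2, 342.4 and 346.4, which overlap.

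Adam24 had the lowest level of the 3 genes. It was 98.3, 113.5 and 99.9 TPM in control, 96.4, 106.4 and 103.1 TPM at 3 days, 115.9, 110.1 and 111.0 TPM at 14 days and 105.6, 103.3 and 110.1 TPM at 21 days. The means were 103.9 ± 8.33, 101.9 ± 5.08, 112.3 ± 3.09 and 106.3 ± 3.44 TPM (SD, n = 3 each). Its highest group was the 14-day stress group, at 1.08 times control, and its lowest the 3-day stress group, at 0.981 times control. The 14-day libraries lay above all 3-day libraries in TPM and in CPM, but the control library of replicate 2 was not lower, at 113.5 TPM among the 14-day values and at 258.1 CPM above all of them. The lowest 14-day value, 110.096 TPM, was barely above the highest 21-day value, 110.078 TPM, and the other neighbours in the order of means overlapped.

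**Figure D1:**
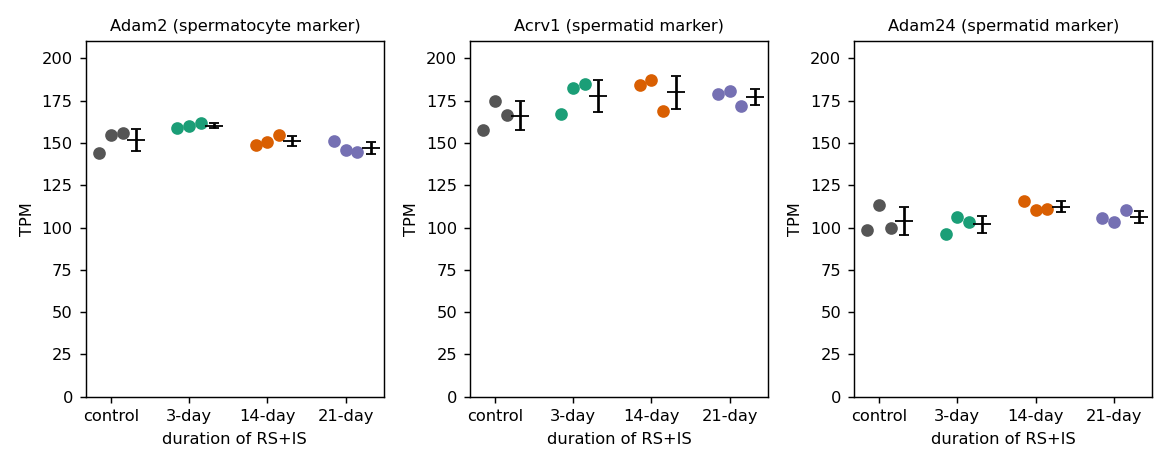
TPM of Adam2, Acrv1 and Adam24 in each of the 12 libraries (points, replicates 1 to 3 from left to right in each group) by duration of RS+IS, with the mean and SD of each group as black bars. All points lie between 96.4 and 187.0 TPM, and the Adam2 points of the 3-day stress group, between 158.8 and 161.9 TPM, are the one group of that gene set apart from the others.

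In all 12 libraries Acrv1 was above Adam2 and Adam2 above Adam24. The highest library exceeded the lowest 1.19-fold for Acrv1, 1.12-fold for Adam2 and 1.20-fold for Adam24. By control TPM, Adam2 ranked 70 of 181 SPC markers (class median 113.5 TPM), and Acrv1 and Adam24 ranked 156 and 218 of 385 spermatid markers (class median 124.6 TPM). The spread between control libraries, as a coefficient of variation in TPM, was 5.08% for Acrv1, 4.26% for Adam2 and 8.02% for Adam24, where counting error alone gives 1.77%, 1.06% and 1.27%. In the 3-day stress group Adam2 varied by only 0.975%, close to the 1.02% of counting error.

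Neither the SPC marker nor the spermatid markers passed the test after 3 days of RS+IS. By edgeR's quasi-likelihood test, the log2 fold change against control was 0.059 for Acrv1 (SE 0.072, adjusted p = 0.984), 0.043 for Adam2 (SE 0.062, adjusted p = 0.984) and -0.069 for Adam24 (SE 0.085, adjusted p = 0.984). The 95% intervals ran from -0.11 to 0.23 for Acrv1, from -0.10 to 0.19 for Adam2 and from -0.27 to 0.13 for Adam24. Over 21076 features, 0% passed an adjusted p of 0.05 (0 with edgeR, 39 with DESeq2), 1.97% were higher and 2.04% lower at an unadjusted p under 0.05, and 9.93% had groups that did not overlap in CPM. No member was among these by either tool. Without the control library of replicate 1 the fold change was 0.0022 for Acrv1 and -0.0099 for Adam2, and without that of replicate 2 it was 0.11 for Acrv1, 0.074 for Adam2 and 0.019 for Adam24.

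After 14 days, both spermatid markers had positive fold changes and Adam2 one close to 0, and again none passed. The log2 fold change was 0.11 for Acrv1 (SE 0.074, 95% interval -0.063 to 0.29, edgeR adjusted p = 0.551), 0.093 for Adam24 (SE 0.084, -0.10 to 0.29, adjusted p = 0.659) and -0.018 for Adam2 (SE 0.067, -0.18 to 0.14, adjusted p = 0.924). At the unadjusted level the p-values of the same edgeR fit were 0.176, 0.302 and 0.793, and the CPM values of control and 14-day libraries overlapped for all 3 genes. Of 21058 features, 0% passed the adjusted threshold (342 features with DESeq2), 7.19% were higher and 4.86% lower at the unadjusted one, and 20.2% had groups that did not overlap. The fold change of Acrv1 was 0.057 without the control library of replicate 1 and 0.17 without that of replicate 2, and that of Adam24 was 0.038 and 0.18. Without the latter library Adam24 had an unadjusted edgeR p of 0.0234 (adjusted p = 0.265) and Adam2 a fold change of 0.013.

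The 21-day stress group gave the same order of the 3 genes. Acrv1 had a log2 fold change of 0.12 (SE 0.087, 95% interval -0.087 to 0.32, edgeR adjusted p = 0.545), Adam24 of 0.057 (SE 0.089, -0.15 to 0.27, adjusted p = 0.787) and Adam2 of -0.018 (SE 0.078, -0.20 to 0.17, adjusted p = 0.926). None passed the unadjusted threshold and all overlapped with control in CPM. Of 21106 features, 0.019% passed the adjusted threshold (4 with edgeR, 733 with DESeq2), 8.46% were higher and 5.71% lower at the unadjusted one, and 22.3% did not overlap. Without the control library of replicate 1 the fold change of Acrv1 was 0.054, that of Adam2 -0.079 and that of Adam24 -0.0085. For Adam24 it was 0.13 without the control library of replicate 2 and 0.026 without that of replicate 3. The value of Adam24 thus depended on which control library was left out.

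Pooling the 6 libraries of the longer durations narrowed the intervals without moving a member past the threshold. Against control the log2 fold change was 0.11 for Acrv1 (SE 0.064, 95% interval -0.027 to 0.26, edgeR adjusted p = 0.343), 0.074 for Adam24 (SE 0.063, -0.066 to 0.21, adjusted p = 0.541) and -0.019 for Adam2 (SE 0.053, -0.14 to 0.099, adjusted p = 0.871). Of 21663 features 1.73% passed the adjusted and 20.4% the unadjusted threshold, and 0 of the 3 members passed either. Both spermatid markers had unadjusted edgeR p-values under 0.05 without the control library of replicate 2, 0.0287 for Acrv1 (log2 fold change 0.18) and 0.00816 for Adam24 (0.17), with adjusted p-values of 0.176 and 0.0998. Adam2 then had a log2 fold change of 0.021. Without the control library of replicate 1 the values were 0.061 for Acrv1 and 0.020 for Adam24, with adjusted edgeR p-values of 0.692 and 0.909, so both depended on which control library was left out. With scaling to the total count, Acrv1 (0.11) passed the unadjusted threshold at an edgeR p of 0.0380.

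Between durations, the widest difference among the 3 genes was that of Adam24 from 3 to 14 days. It had a log2 fold change of 0.16 (SE 0.051, 95% interval 0.036 to 0.28) at an unadjusted edgeR p of 0.0176, with no overlap between the groups in CPM, but it missed the threshold over all features (adjusted p = 0.298 with edgeR, 0.105 with DESeq2). Adam2 went the other way over the same interval, with a log2 fold change of -0.067 (SE 0.039, -0.16 to 0.024, edgeR adjusted p = 0.490) and no overlap in TPM or in CPM scaled over the pair, whereas with factors from all 12 libraries the 14-day library of replicate 3 (337.6 CPM) exceeded the 3-day library of replicate 1 (336.2 CPM). Acrv1 gave 0.047 (edgeR adjusted p = 0.737). The unadjusted call of Adam24 was lost without the 3-day library of replicate 1 (0.12, edgeR p of 0.0502), without the 14-day library of replicate 1 (0.14, p of 0.0616) and in a fit of all 12 libraries (0.16, p of 0.0513), while Adam2 passed the unadjusted threshold with scaling to the total count (-0.090, p of 0.0465). Here 0% of 21139 features passed the adjusted threshold with edgeR (411 with DESeq2), 13.4% passed the unadjusted one and 20.8% did not overlap, beside 1 of the 3 members past the unadjusted threshold.

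From 3 to 21 days, Adam2 had a log2 fold change of -0.085 (SE 0.052, 95% interval -0.21 to 0.038, edgeR adjusted p = 0.449), Adam24 of 0.10 (adjusted p = 0.409) and Acrv1 of 0.036 (adjusted p = 0.830). Adam2 did not overlap between these groups in TPM or in CPM scaled over the pair, while with factors from all 12 libraries the 21-day library of replicate 2, at 346.3 CPM, lay among the 3-day values. Without that library the fold change of Adam2 was -0.11 at an unadjusted edgeR p of 0.0302 (adjusted p = 0.237), and that of Acrv1 became -0.016. With scaling to the total count Adam2 also passed the unadjusted threshold, at -0.10 and an edgeR p of 0.0329. Of 21203 features 0.00472% passed the adjusted threshold, 16.6% passed the unadjusted one and 24.5% did not overlap. Between 14 and 21 days the 3 log2 fold changes were 0.0050 for Acrv1, -0.0021 for Adam2 and -0.039 for Adam24, each with an edgeR adjusted p of 0.999. In that comparison 0% of 21051 features passed the adjusted threshold with edgeR (20 with DESeq2), 3.05% passed the unadjusted one and 8.6% did not overlap.

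A single test across the 4 groups gave unadjusted edgeR p-values of 0.195 for Adam24, 0.366 for Acrv1 and 0.722 for Adam2, with adjusted values of 0.552, 0.698 and 0.891. Of 21992 features 0.427% passed the adjusted and 15.1% the unadjusted threshold. Over every comparison, setting and left-out library, the lowest adjusted p of a member was 0.0998 for Adam24, 0.176 for Acrv1 and 0.237 for Adam2.

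**Figure D2:**
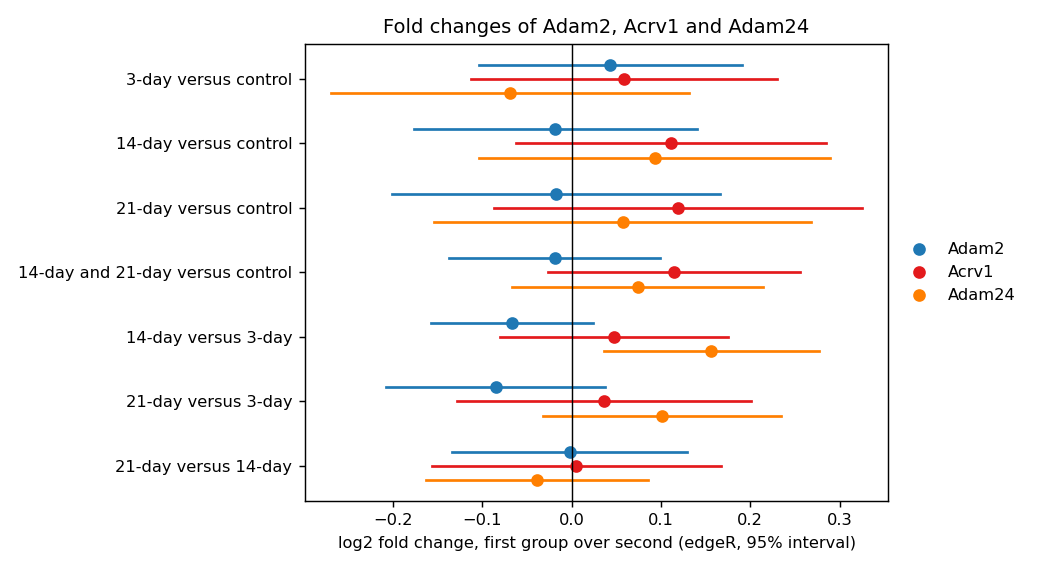
Log2 fold change of Adam2 (blue), Acrv1 (red) and Adam24 (orange) in 7 comparisons, first group over second, from edgeR with 95% intervals as bars. The interval of Adam24 at 14 against 3 days, from 0.036 to 0.28, is the one that leaves out 0, and no member passes an adjusted p of 0.05.

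Because the comparison of an SPC marker with spermatid markers need not rest on the scaling of the libraries, it was made within each library as the log2 ratio of TPM. Adam2 over Acrv1 was -0.13, -0.18 and -0.092 in control and -0.074, -0.19 and -0.19 at 3 days. It was -0.31, -0.31 and -0.13 at 14 days and -0.24, -0.31 and -0.25 at 21 days. All 21-day libraries lay below all control libraries, and 5 of the 6 libraries of the longer durations lay below the control mean. The difference from control was -0.14 at 21 days (exact permutation p = 0.1, the smallest that 3 against 3 libraries can give, two-sided like all permutation tests here) and -0.13 for the 6 pooled libraries (exact permutation p = 0.0476, where 6 against 3 allow 0.0238). Adjusted over the 15 tests of the 3 ratios, the exact permutation p was 0.309 for each, and the pooled p was above 0.05 on leaving out any single library except the 14-day one of replicate 3. At 3 days the difference was -0.018 (exact permutation p = 0.8) and at 14 days -0.12 (exact permutation p = 0.2).

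Adam2 over Adam24 lay on both sides of control. The log2 ratio was 0.55, 0.45 and 0.64 in control, 0.72, 0.59 and 0.65 at 3 days, 0.36, 0.45 and 0.48 at 14 days and 0.52, 0.49 and 0.39 at 21 days. The mean was 0.55 ± 0.099 in control, 0.65 ± 0.066 at 3 days, 0.43 ± 0.060 at 14 days and 0.47 ± 0.067 at 21 days (SD, n = 3 each). All 3-day libraries were above the control mean and all 6 libraries of the longer durations below it, although every stress group overlapped with control. Between groups lay a share of 0.663 of the variance (exact permutation p = 0.0349 over the 4 groups, above 0.05 without any 1 of 5 single libraries, 0.309 adjusted over the 15 tests), and no difference from control passed, with exact permutation p-values of 0.2, 0.3 and 0.4 at 3, 14 and 21 days.

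Set against each other rather than against control, the durations overlapped in 5 of 9 comparisons of the 3 ratios and did not in 4, in tests added after these values were seen. The ratio of Adam2 to Adam24 was lower at 14 days than at 3 days by a log2 difference of -0.22 and lower at 21 days by -0.18, in both cases with no overlap (exact permutation p = 0.1 each, 0.225 adjusted over 9 tests). The ratio of Adam2 to Acrv1 was lower at 21 than at 3 days by -0.12, also without overlap (exact permutation p = 0.1, adjusted p = 0.225), while at 14 against 3 days it overlapped with a difference of -0.10 (exact permutation p = 0.3). The ratio within the spermatid class, Acrv1 to Adam24, was likewise lower at 14 than at 3 days, by -0.12 without overlap (exact permutation p = 0.1, adjusted p = 0.225). On a linear scale, the ratio of Adam2 to Adam24 in the 14-day stress group was 0.856 of that at 3 days. The larger part lay in the denominator, with edgeR log2 fold changes of 0.16 for Adam24 and -0.067 for Adam2.

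The ratio of the 2 spermatid markers served as a comparison within one class. Acrv1 over Adam24 was 0.68, 0.62 and 0.74 in control, 0.79, 0.78 and 0.84 at 3 days, 0.67, 0.76 and 0.61 at 14 days and 0.76, 0.81 and 0.64 at 21 days. The 3-day libraries lay above all control and all 14-day libraries, with a log2 difference of 0.12 from control (exact permutation p = 0.1, adjusted p = 0.309 over the 15 tests). At 14 and 21 days the differences from control were 0.00033 and 0.058, with overlap in both.

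**Figure D3:**
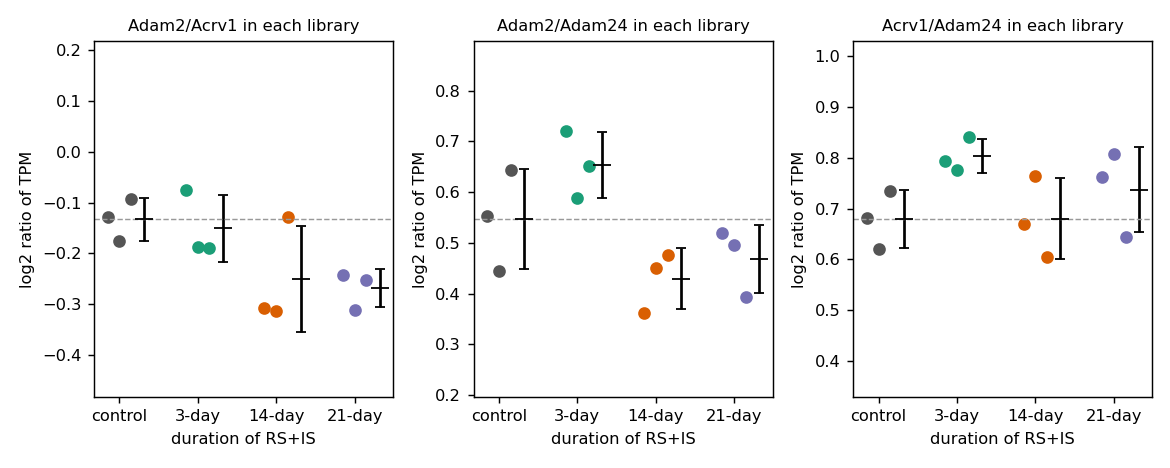
Log2 ratio of TPM within each library for Adam2/Acrv1, Adam2/Adam24 and Acrv1/Adam24 (points, replicates 1 to 3 from left to right) by duration of RS+IS, with group mean and SD as black bars and the control mean as a dashed line. Each panel spans the same height in log2 units, and in the middle panel the 3-day points lie above the dashed line and the 14-day and 21-day points below it.

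The members were next placed among the markers of their own class. At 3 days, SPC markers had a median log2 fold change against control of 0.0043 and spermatid markers of -0.043. At 21 days these medians were -0.065 and 0.15, with -0.0031 over all features tested. Adam2 lay above the median of its class at that time, since 132 of 181 SPC markers had a lower fold change. Acrv1 lay between the quartiles of its class, with 150 of 385 spermatid markers lower. Adam24 lay below the lower quartile of 0.078, with 76 of 385 lower. At 14 days all 3 genes sat near the middle of their classes, with 100 of 181, 225 of 385 and 180 of 385 markers lower. At 3 days Acrv1 was high among the spermatid markers (324 of 385 lower), unlike Adam24 (149 of 385 lower). These positions share the 3 control libraries and are given as a description.

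**Figure D4:**
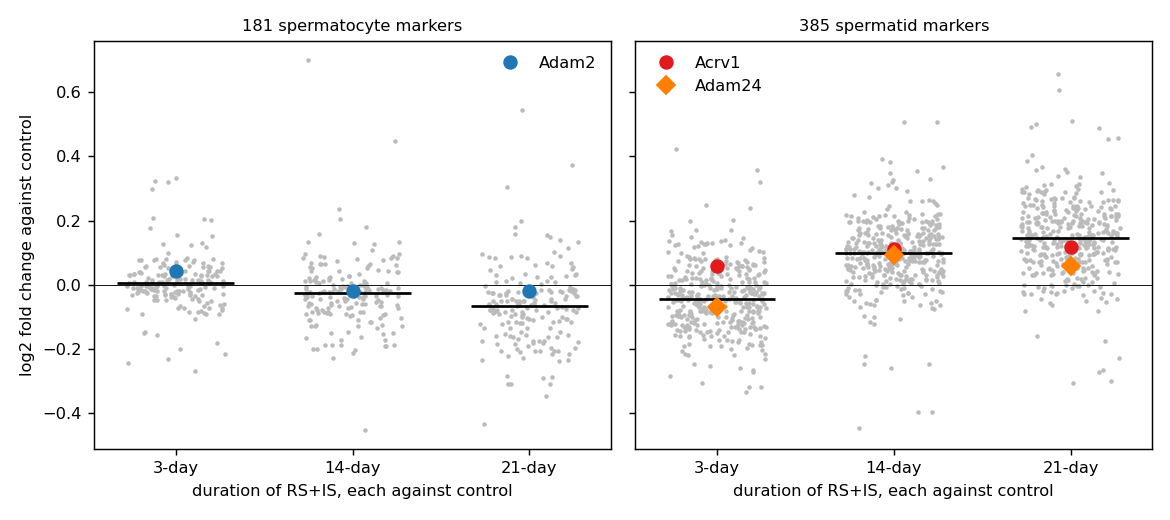
Log2 fold change against control of each of 181 spermatocyte markers (left) and 385 spermatid markers (right) at 3, 14 and 21 days, with class medians as black bars and the members as coloured symbols. At 21 days Adam2 (-0.018) lies above its class median of -0.065, and Acrv1 (0.12) and Adam24 (0.057) lie below theirs of 0.15.

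Across the 12 libraries, the log2 CPM of Acrv1 and Adam24 had a Pearson correlation of 0.73 (Spearman 0.64), that of Acrv1 and Adam2 0.51 (0.38) and that of Adam2 and Adam24 0.19 (0.091). These values describe points that share library depth and scaling. After subtraction of the group means the Pearson correlations were 0.77, 0.75 and 0.60, so in CPM libraries of 1 group differed in a like way for all 3 genes. This did not hold for every library in TPM. The 21-day library of replicate 2 was the highest of its group in CPM for Acrv1 (141.1), Adam2 (346.3) and Adam24 (249.2). In TPM the same library was the lowest of its group for Adam24 (103.3) and lay below replicate 1 for Adam2. The median correlation of Adam24 with spermatid markers was 0.73 and with SPC markers 0.19, that of Acrv1 was 0.63 and 0.34, and that of Adam2 was 0.23 and 0.49.

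Among the 577 other markers, those most like Acrv1 were Btbd16 (Pearson correlation 0.94), Lrrc9 (0.93) and Spaca1 (0.93), of which Spaca1 encodes a membrane protein of the acrosome. Those most like Adam24 were Usp15, a deubiquitinating enzyme (0.95), Slc16a7, a monocarboxylate transporter (0.93), and Tmco2 (0.92), and all 6 genes are listed as spermatid markers. The markers most like Adam2 were Jazf1 (0.82), Tcea2, a transcription elongation factor (0.82), and Pbx4, a homeobox factor of spermatocytes (0.82), the first a spermatid and the others SPC markers.

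The other genes of the acrosome and the sperm surface were described as a list of 27 markers, chosen by function with earlier results of these data known, of which 21 are spermatid and 6 SPC markers. All 27 passed the filter on low counts. At 3 days 19 had positive and 8 negative fold changes, none past an unadjusted edgeR p of 0.05, and the median log2 fold change was 0.026 beside -0.011 over all features. At 14 days 18 were positive and 9 negative, 2 of 27 passed the unadjusted threshold, both upward, beside 7.19% of all features, a share near that background, and the median was 0.079 beside -0.012. At 21 days 19 were positive and 8 negative, 4 passed upward and 0 downward, and the median was 0.079 beside -0.0031. No member of the list passed an adjusted p of 0.05 with edgeR in any of the 3 comparisons. The 4 of 27 at 21 days, all of them spermatid markers, stand beside 8.46% of all features and 54 of 385 spermatid markers.

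Split by the class that the study gives each gene, the list gave these counts. At 3 days 15 of 21 spermatid and 4 of 6 SPC markers of the list were positive. At 14 days 18 of 21 spermatid markers of the list had positive fold changes (median 0.10), and all 6 SPC markers (Spink2, Zpbp2, Spesp1, Dkkl1, Clgn and Catsper2) had negative ones (median -0.025), beside 335 of 385 spermatid markers positive and 123 of 181 SPC markers negative. At 21 days the counts were 18 of 21 positive (median 0.10) and 5 of 6 negative (median -0.023), beside 347 of 385 and 140 of 181. The difference between the parts was not tested.

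Among proteins of the acrosome contents, Pla2g10, a secreted phospholipase, had a log2 fold change of 0.24 at 14 days (edgeR adjusted p = 0.332) and 0.25 at 21 days (adjusted p = 0.241), both past the unadjusted threshold, from a control mean of 48.9 ± 1.27 TPM to 57.0 ± 2.01 TPM at 21 days. Spaca7, an acrosomal protein released at exocytosis, passed the unadjusted threshold at 21 days with a log2 fold change of 0.18 (edgeR adjusted p = 0.330), 663.4 ± 39.69 TPM in control and 714.2 ± 33.03 TPM at 21 days. Its highest mean in TPM was that of the 3-day stress group, 728.8 ± 59.33. The fold changes are from counts scaled by TMM and need not equal the ratios of the TPM means, which for Spaca7 differ less. Lyzl6, a lysozyme-like protein, had the highest value of the list at 3 days, 0.13. Spam1, the sperm hyaluronidase PH-20, had the lowest at 21 days, -0.055.

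Of the acrosomal membrane and fusion proteins, Eqtn (equatorin) passed it at 14 days with 0.21 (edgeR adjusted p = 0.371), 112.4 ± 8.46 TPM in control and 131.1 ± 4.62 TPM at 14 days. Glipr1l1, a protein of the sperm surface that takes part in binding to the egg coat, had the lowest value of the list at 14 days, -0.11. Among 3 chaperones of the endoplasmic reticulum, Calr3 had the lowest value of the list at 3 days, -0.14. Clgn, the calmegin on which Adam2 depends, had -0.025 at 21 days (SE 0.090, edgeR adjusted p = 0.912), while the 2 other chaperones had positive values.

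Among ion channels and the pump of the sperm surface, Atp1a4, the sodium pump subunit of sperm, had the highest value of the list at 21 days, with a log2 fold change of 0.31 (edgeR adjusted p = 0.298, past the unadjusted threshold) between 240.4 ± 26.5 TPM in control and 293.5 ± 5.61 TPM. Catsper4, a subunit of the sperm calcium channel, passed the unadjusted threshold at 21 days with 0.27 (edgeR adjusted p = 0.336) and had the highest value at 14 days, 0.31, which did not pass at an unadjusted edgeR p of 0.109. Catsper4 was also the gene of the list with the lowest level, 14.3 ± 1.15 TPM in control. At 21 days the 21 spermatid markers of the list had a median log2 fold change of 0.10, beside 0.12 for Acrv1 and 0.057 for Adam24.

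**Figure D5:**
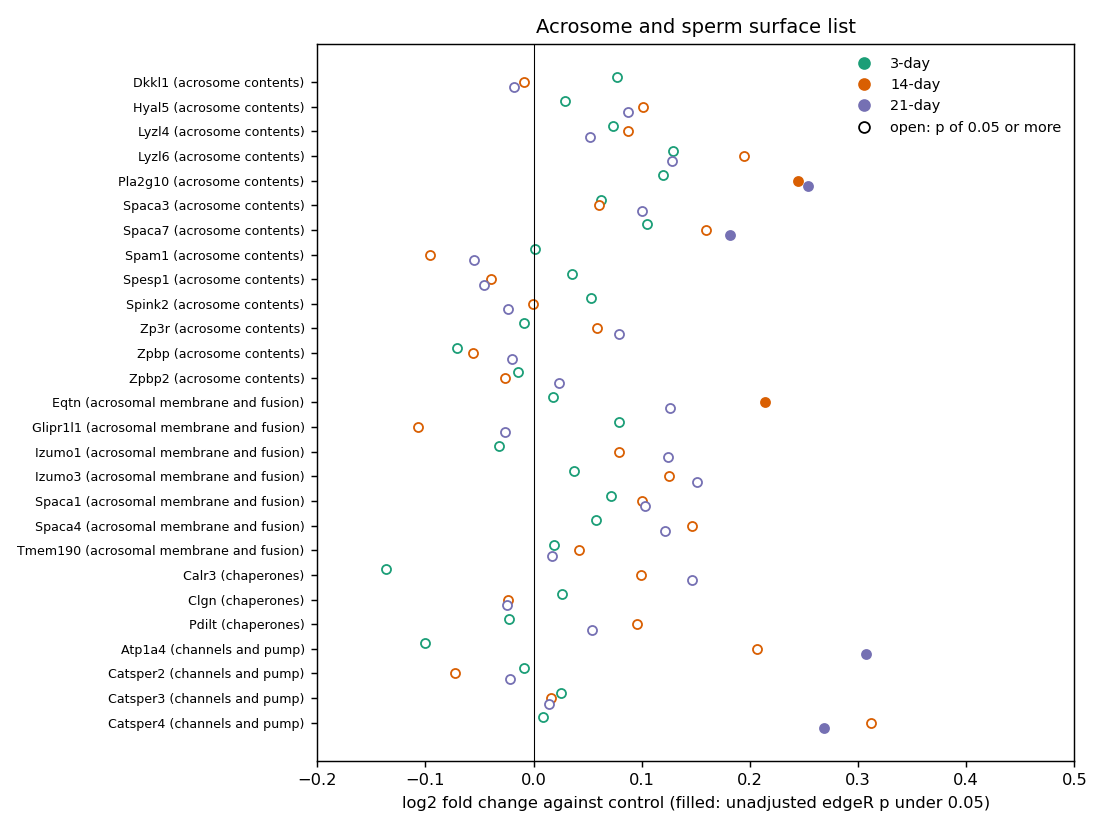
Log2 fold change against control at 3 days (green), 14 days (orange) and 21 days (violet) of the 27 acrosome and sperm surface genes by role, with filled symbols where the unadjusted edgeR p was under 0.05. The filled symbols, 2 at 14 days and 4 at 21 days, all lie at positive values between 0.18 and 0.31, and none passes after adjustment over all features.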

How the data were processed

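Total RNA of 12 rat testis samples was depleted of ribosomal RNA and sequenced from directional libraries. Trimmomatic, HISAT2 and HTSeq are the tools that the authors name for trimming, alignment to the Rnor_6.0 build and counting, with versions not given in the sources used here. The deposited tables give, per transcript, an estimated count, lengths and TPM without pooling, a layout that HTSeq does not write, so the counter behind them is uncertain.

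Marker symbols were tied to transcripts by matching values of the study's marker table. Estimated counts were rounded and tested with edgeR 4.0.16 (R 4.3.3; filterByExpr, TMM, quasi-likelihood) on the libraries of each comparison, with DESeq2 1.42.0 as alternative. Adjusted p-values are Benjamini-Hochberg over all features. Ratios of TPM were tested by exact two-sided permutation (Python 3.11.15, NumPy 2.4.6). The pipeline was tested on simulated data.

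Members, lists and tests were chosen with earlier results of these data known. Named genes are the members, list genes past an unadjusted p of 0.05 or at an extreme of the list, and the 3 markers most correlated with each member. Clgn (named for its role with Adam2) and the 6 SPC genes of the list fall outside this rule and were named after their values were seen. The same holds for the stage markers of spermatogonia, spermatocytes and spermatids, apart from Spam1. Depth was between 23907966 and 29404567 counts per library.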

Additional observations from a re-analysis of the deposited data

Results flagged for a closer look

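The ratio of Adam2 to Adam24 stood on opposite sides of the control mean after short and long stress. All 3-day libraries were above the control mean and all 14-day libraries below it, and the 2 groups differed by a log2 ratio of -0.2237 (exact permutation p = 0.1, adjusted p = 0.225 over 9 tests). The 21-day libraries were also all below the control mean and differed from the 3-day libraries by -0.1846 (exact permutation p = 0.1, adjusted p = 0.225). The ratio within the spermatid class, Acrv1 to Adam24, also had all 3-day libraries above control and was lower at 14 than at 3 days by -0.12 without overlap (exact permutation p = 0.1, adjusted p = 0.225), so the shift was not seen for the SPC marker alone. This ratio and that of Adam2 to Adam24 share Adam24 as denominator. From 3 to 14 days the edgeR log2 fold change was 0.16 for Adam24, -0.067 for Adam2 and 0.047 for Acrv1. With 3 libraries against 3 no smaller p can be reached, both differences share the 3-day libraries, and the tests were chosen after the values were seen. Among the values of the 3 genes and 3 ratios in the 6 libraries of the longer durations, no library stood apart from the others by Dixon's criterion. On 6 values this criterion can miss an outlying library. Without the 14-day library of replicate 3, the share of variance between groups for Adam2 to Acrv1 was 0.796.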

How the results depend on the processing

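No member passed an adjusted p of 0.05 under any alternative. Of the fold changes recomputed with all libraries, 163 kept their sign, and the other 5 were all of the 21-day against the 14-day group, where Acrv1 was -0.0047 with scaling to the total count and Adam2 was 0.0044 with RLE factors, 0.0063 with TMM factors from features outside the markers, 0.0024 with DESeq2 and 0.0026 in a fit of all 12 libraries. The list had 1 gene higher at 3 days and 4 at 14 days with scaling to the total count, and 1 gene lower at 3 days with the replicate block.

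The groups share replicate numbers, and same-numbered libraries deviated together with correlations between -0.12 and 0.22, so the numbers were not taken as pairs. With the replicate block, the pooled ratio of Adam2 to Acrv1 stayed at -0.13 with an exact permutation p of 0.0741, the share of variance between groups for Adam2 to Adam24 at 0.663 with an exact permutation p of 0.066, and 0 features passed at 21 days and over the 4 groups and 21 for the pooled durations.

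With 1 library left out at a time, 119 log2 fold changes of the members kept their sign and 16 reversed it. All ranges of Acrv1 against control stayed positive (0.061 to 0.18 pooled), as did those of Adam24 at 14 days and pooled. Against 3 days, Adam2 stayed negative at 14 and 21 days. The ranges that crossed 0 were as follows. Adam2 ran from -0.0099 to 0.074 at 3 days, from -0.069 to 0.013 at 14 days, from -0.079 to 0.0099 at 21 days and from -0.069 to 0.021 pooled. Adam24 ran from -0.13 to 0.019 at 3 days and from -0.0085 to 0.13 at 21 days. Acrv1 ran from -0.016 to 0.080 for 21 against 3 days and from -0.056 to 0.059 for 21 against 14 days, where Adam2 ran from -0.040 to 0.044. For the ratios, Adam2 to Acrv1 ran from -0.056 to 0.0023 at 3 days and from -0.15 to -0.11 pooled, with exact permutation p-values up to 0.143, and Acrv1 to Adam24 from -0.042 to 0.037 at 14 days. The share between groups ran from 0.483 to 0.796 for Adam2 to Acrv1, the highest without the 14-day library of replicate 3 (exact permutation p = 0.012), and from 0.581 to 0.768 for Adam2 to Adam24, whose p was above 0.05 without any 1 of 5 single libraries. The cause of these changes was not tested.

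Counts of features past an adjusted p of 0.05 depended most on the tool. DESeq2 called 39, 342 and 733 features at 3, 14 and 21 days and 1650 pooled, where edgeR called 0, 0, 4 and 375, and 1458 against 94 over the 4 groups. In a fit of all 12 libraries edgeR called 1, 12, 666 and 880. The pooled count was 248 with no filter on low counts and 671 with at least 10 counts in every library, and the count over the 4 groups was 30 with RLE factors or no filter, 22 with scaling to the total count and 171 with the stricter filter. Between durations DESeq2 called 411, 766 and 20 features for 14 against 3, 21 against 3 and 21 against 14 days, where edgeR called 0, 1 and 0 and, in its other settings, at most 30.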
